A study of Homo sapiens with 4 samples.

Results

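The sterol ring enzymes turn squalene into cholesterol, and 9 of their genes are described here: SQLE, LSS, CYP51A1, TM7SF2, SC4MOL (the older symbol of MSMO1), NSDHL, HSD17B7, EBP and DHCR7. They were found by symbol among 23228 gene symbols, and all 9 were present and passed the filter on low counts. The genes were selected on their counts with PELP1 siRNA against control siRNA, the same contrast that is described below. Their fold changes, and whether they passed the threshold of the test, are therefore a description from which nothing is inferred. Their promoter sequences were not part of that choice. Their levels in control cells and their differences within a group were no criteria of it, although the same counts enter the contrast.

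RNA came from U87 MG, an established human glioblastoma line grown in serum-containing medium. One group of 2 libraries was transfected with a control siRNA and the other group of 2 with siRNA against PELP1, a scaffold protein of nuclear receptors and of ribosome assembly. Both groups received oligofectamine as the transfection reagent, and total RNA was taken 72 hours later. The sources used here give neither the siRNA sequences nor whether each siRNA was a single molecule or a pool. The design text says that samples were run in duplicate and does not say whether the 2 libraries of a group came from separate cultures, so p-values cover no more than the differences among these 4 libraries and may be technical in part.

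Cholesterol synthesis begins with the mevalonate pathway, which builds squalene from acetyl-CoA. Squalene is then oxidised by SQLE and folded into the ring system of lanosterol by LSS. The enzymes that follow strip methyl groups from the rings and move or reduce ring double bonds until cholesterol remains. Most genes of the pathway are known targets of SREBP2, a transcription factor that is freed from the endoplasmic reticulum when membrane sterol is low, and NF-Y is a known partner of SREBP proteins at such promoters. Glial cells are a main source of cholesterol in the brain, which takes up little from the blood.

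PELP1 stood at 74.0 and 78.1 CPM in the control libraries (counts scaled to a common library size, with TMM factors) and at 15.2 and 17.7 CPM in the silenced libraries (log2 fold change -2.21, SE 0.097, adjusted p = 8.32e-14). Counts over genes ranged from 18670162 to 22858988 per library. With PELP1 siRNA, 1712 of 13234 genes tested (12.9%) rose and 1980 (15.0%) fell. With libraries scaled by total counts alone, the split was 2272 higher and 1597 lower. Without control library 1 or 2 the counts fell to 523 higher and 943 lower or to 614 and 1075, and without PELP1 siRNA library 1 or 2 they grew to 2724 and 2804 or to 2604 and 2629. Of the markers set for U87 cells, VIM, CD44 and FN1 were abundant at 1979 CPM or more in each group's mean, whereas GFAP was at 1.37 and 1.53 CPM and S100B had at most 1 count in a library. CDKN2A, CDKN2B and MTAP, which U87 cells are known to lack, had 0 counts in all 4 libraries. VIM, CD44, FN1 and NES fell, 4 of the 5 U87 markers tested, and the markers' summed level was 12791 and 12800 CPM in control and 9938 and 10344 CPM in silenced libraries. Of the 19 markers of other cell types, CD68 (424 and 404 CPM) and SNAP25 (48.3 and 31.3 CPM) exceeded 1.7 CPM in a group mean. EPCAM rose from 0.782 to 1.60 CPM (adjusted p = 0.0188) and SNAP25 fell (log2 fold change -0.63, adjusted p = 9.03e-06), and the part of these shifts in the results below was not tested. In bulk RNA, a change in the number of cells that express a gene and a change in RNA per cell cannot be told apart.

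With PELP1 siRNA, 6 of the 9 sterol ring enzymes were past the threshold as higher and 0 as lower, beside 12.9% and 15.0% of all genes tested. These 6 were SC4MOL, DHCR7, SQLE, CYP51A1, EBP and NSDHL, with fold changes from 2.36 down to 1.36. LSS, HSD17B7 and TM7SF2 were not past it, although LSS passed without PELP1 siRNA library 1, and HSD17B7 without PELP1 siRNA library 2 or with total-count scaling. Both PELP1 siRNA libraries lay above both control libraries for 7 of the 9 (32.0% of all genes tested), namely these 6 and HSD17B7. For 0 of the 9 did both lie below (32.3% of all genes tested). The median log2 fold change of the 9 was 0.51, against 0.00088 over all genes tested. Because this contrast chose the genes, nothing is inferred from these counts. Summed over the 9 genes, the level was 520.2 and 539 CPM in the control libraries and 816 and 819.7 CPM in the PELP1 siRNA libraries, a ratio of means of 1.54.

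**Figure D1:**
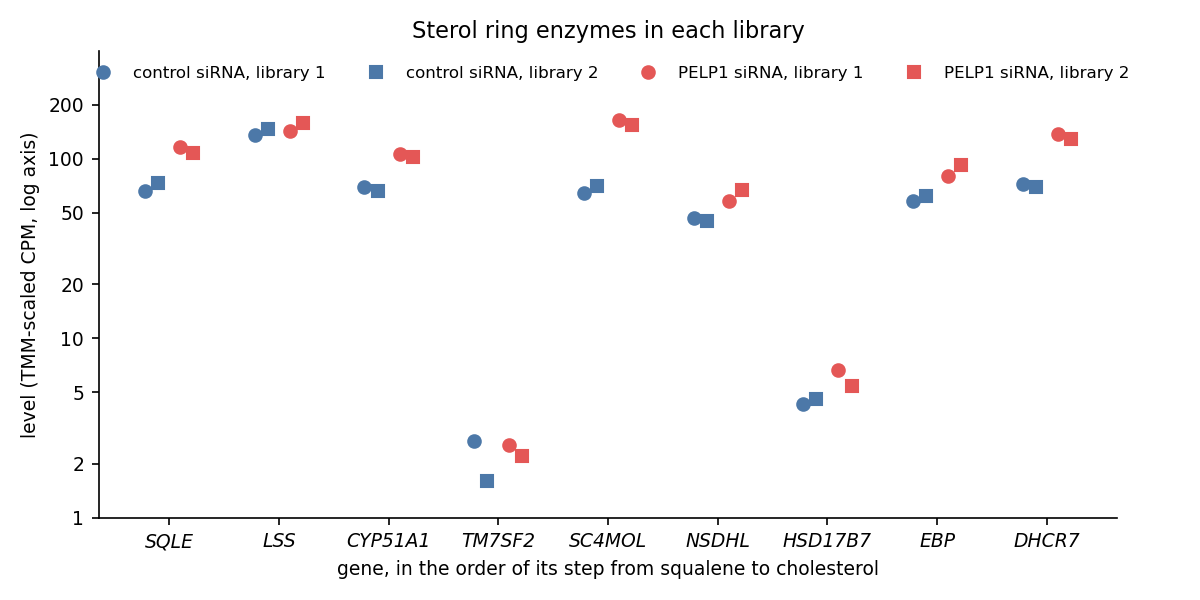
TMM-scaled CPM (log axis) of each sterol ring enzyme in the 4 libraries, in pathway order; circles are library 1 and squares library 2 of each group. Control and PELP1 siRNA points separate for 7 genes, most widely for SC4MOL, and overlap for LSS and TM7SF2.

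The first steps of ring formation had unlike values. SQLE, the squalene epoxidase that begins the oxygen-dependent part of the pathway, stood at 66.2 and 73.0 CPM with control siRNA and at 116 and 108 CPM with PELP1 siRNA. Both silenced libraries were above both controls, from 69.6 ± 4.77 to 112 ± 5.72 CPM (mean ± SD, n = 2 per group; log2 fold change 0.69, SE 0.077). LSS, the lanosterol synthase that closes the rings, stood at 136 and 146 CPM with control siRNA and at 143 and 159 CPM with PELP1 siRNA. Its groups overlapped, since the first silenced library lay below the second control library, and its log2 fold change was 0.10 (SE 0.071). CYP51A1, the cytochrome P450 that removes a methyl group from lanosterol, stood at 69.4 and 66.1 CPM with control siRNA and at 107 and 102 CPM with PELP1 siRNA. Its groups were well apart (log2 fold change 0.63, SE 0.074), and single ratios of a silenced to a control library ran from 1.48 to 1.615.

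LSS lies on GRCh37 chromosome 21 (47608055 to 47648738, minus strand) and CYP51A1 on chromosome 7 (91714301 to 91764117, minus strand). In the GENCODE annotation 11.7% of the exon bases of LSS are shared with genes on the opposite strand. Of the exon bases of CYP51A1, 90.1% are shared with other annotated genes on the same strand. Where the counting used such models, ambiguous reads in shared bases of CYP51A1 may be missing from the gene counts. For LSS the same holds only if the counting ignored strand, and its strand setting is not stated. The bases upstream of their RefSeq start sites are shown for these neighbours in the pathway, which were picked after their values and matches were seen. Whether motif content bears on the response was not tested. In each sequence the capitals mark exact matches to the NF-Y box or the GC box. The NF-Y box reads CCAAT, or its reverse complement. The GC box reads GGGCGG, or its reverse complement. The windows are chr21:46228775-46229024 and chr7:92134478-92134727 of GRCh38.p14, minus strand, read 5′ to 3′.
LSS: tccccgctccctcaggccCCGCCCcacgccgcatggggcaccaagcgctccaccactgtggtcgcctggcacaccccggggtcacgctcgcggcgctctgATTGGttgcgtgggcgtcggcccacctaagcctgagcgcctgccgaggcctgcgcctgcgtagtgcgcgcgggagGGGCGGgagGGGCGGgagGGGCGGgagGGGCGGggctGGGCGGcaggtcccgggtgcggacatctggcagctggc
CYP51A1: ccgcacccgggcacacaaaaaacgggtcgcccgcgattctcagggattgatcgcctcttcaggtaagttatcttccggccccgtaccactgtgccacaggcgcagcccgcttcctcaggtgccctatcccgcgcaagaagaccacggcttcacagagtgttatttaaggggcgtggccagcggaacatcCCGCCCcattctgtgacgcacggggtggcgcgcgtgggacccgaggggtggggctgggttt
The upstream 250 bases of LSS hold 6 GC boxes and 1 NF-Y box, and those of CYP51A1 hold 1 GC box and no NF-Y box.

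The step after CYP51A1, the reduction of a ring double bond, can be run by TM7SF2 or by LBR, a protein of the inner nuclear membrane that is no member of the 9. TM7SF2, on GRCh37 chromosome 11 (64879317 to 64883856, plus strand), stood at 2.68 and 1.61 CPM with control siRNA and at 2.54 and 2.21 CPM with PELP1 siRNA, from 36 to 52 counts per library. Its groups overlapped, and its log2 fold change of 0.17 (SE 0.26) turned to -0.17 without control library 2. LBR stood at 85.4 and 87.5 CPM with control siRNA and at 93.5 and 86.7 CPM with PELP1 siRNA, and it did not pass the threshold (log2 fold change 0.059, adjusted p = 0.586). Per kilobase of canonical transcript, LBR was 17.0 times as abundant as TM7SF2 in the control mean and 16.0 times in the PELP1 siRNA mean. These ratios are rough, since TM7SF2 stood at 1.70 and 1.02 CPM per kb in the control libraries. With the length of all annotated exons instead, the control means were 15.1 CPM per kb for LBR and 0.629 for TM7SF2. Neither reductase gene had separate groups of libraries.

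SC4MOL, NSDHL and HSD17B7 form the complex that removes the paired methyl groups of the first ring, and they differed in size of change and in abundance. SC4MOL, the methylsterol oxidase, stood at 64.7 and 70.7 CPM with control siRNA and at 165 and 154 CPM with PELP1 siRNA. It changed more than any other member, from 67.7 ± 4.25 to 159.9 ± 7.97 CPM (log2 fold change 1.24, SE 0.074), and ranked 46 of 13234 genes by log2 fold change. NSDHL, the dehydrogenase and decarboxylase, stood at 46.7 and 45.1 CPM with control siRNA and at 58.1 and 66.8 CPM with PELP1 siRNA. Its groups were apart but its change was the smallest of the 6 past the threshold (log2 fold change 0.44, SE 0.087). HSD17B7, the ketoreductase of the complex, on GRCh37 chromosome 1 (162760492 to 162782613, plus strand), stood at only 4.33 and 4.60 CPM with control siRNA and at 6.65 and 5.43 CPM with PELP1 siRNA. Its log2 fold change of 0.43 was nearly that of NSDHL, but with 84 to 131 counts per library its SE was 0.17 and it did not pass. A near copy of HSD17B7, the pseudogene HSD17B7P2, had 8 to 12 counts per library, so reads that the counter could not place uniquely may be missing from both. GENCODE also lists the processed pseudogenes HSD17B7P1, CYP51A1P1, CYP51A1P2 and CYP51A1P3, so reads of CYP51A1 may be missing in the same way.

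The accessory protein ERG28 (C14orf1 in the files), which tethers the enzymes of this complex, moved the other way. It fell from 36.1 and 40.5 CPM in the control libraries to 25.3 and 26.1 CPM in the silenced ones (log2 fold change -0.58, SE 0.095, adjusted p = 6.63e-05). Its silenced libraries lay below its control libraries, as they did for 32.3% of all genes tested. Those of all 3 enzymes of the complex lay above, as for 32.0% of all genes tested. Of these 3, which this contrast chose, HSD17B7 was not past the threshold.

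SC4MOL lies on GRCh37 chromosome 4 (166248819 to 166264316, plus strand) and NSDHL on chromosome X (151999511 to 152038273, plus strand). Neither shares exon bases with another gene in GENCODE. Their upstream sequences are shown because they hold more NF-Y boxes than those of the other members, with capitals as above. The windows are chr4:165327419-165327668 and chrX:152830813-152831062 of GRCh38.p14, plus strand.
SC4MOL: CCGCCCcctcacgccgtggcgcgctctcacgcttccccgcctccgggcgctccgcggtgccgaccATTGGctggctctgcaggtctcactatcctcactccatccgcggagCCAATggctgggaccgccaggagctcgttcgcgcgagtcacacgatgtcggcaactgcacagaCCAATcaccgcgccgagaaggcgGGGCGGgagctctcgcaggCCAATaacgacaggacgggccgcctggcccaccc
NSDHL: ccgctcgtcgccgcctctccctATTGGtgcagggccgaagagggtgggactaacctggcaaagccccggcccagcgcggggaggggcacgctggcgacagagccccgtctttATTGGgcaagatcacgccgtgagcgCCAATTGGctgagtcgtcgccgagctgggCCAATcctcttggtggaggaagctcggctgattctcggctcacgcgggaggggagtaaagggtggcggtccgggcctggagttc
SC4MOL has 4 NF-Y boxes between positions -185 and -34 from the start site and 2 GC boxes. NSDHL has 5 NF-Y boxes between -228 and -84, of which the pair at -113 and -110 overlap on opposite strands, and no GC box.

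The last ring steps were carried by EBP and DHCR7. EBP, the isomerase that shifts a ring double bond and a known binding protein of the drug emopamil, stood at 58.1 and 62.4 CPM with control siRNA and at 80.3 and 91.9 CPM with PELP1 siRNA. Its groups were apart (log2 fold change 0.51, SE 0.082). EBP lies on GRCh37 chromosome X (48380187 to 48387104, plus strand). In GENCODE 57.1% of its exon bases are shared with another gene model on the same strand. Where the counting used such models, ambiguous reads in these bases may be missing from the counts of EBP. DHCR7, the reductase whose loss causes Smith-Lemli-Opitz syndrome, stood at 72.0 and 69.9 CPM with control siRNA and at 137 and 129 CPM with PELP1 siRNA. Its change was second to that of SC4MOL among the members, from 71.0 ± 1.43 to 133 ± 5.35 CPM (log2 fold change 0.91, SE 0.072), and it ranked 153 of 13234 genes. DHCR7 lies on GRCh37 chromosome 11 (71139239 to 71163914, minus strand), and the window upstream of its first listed start site (chr11:71448394-71448643 of GRCh38.p14, minus strand) is shown as that of the gene with the second largest change.
DHCR7: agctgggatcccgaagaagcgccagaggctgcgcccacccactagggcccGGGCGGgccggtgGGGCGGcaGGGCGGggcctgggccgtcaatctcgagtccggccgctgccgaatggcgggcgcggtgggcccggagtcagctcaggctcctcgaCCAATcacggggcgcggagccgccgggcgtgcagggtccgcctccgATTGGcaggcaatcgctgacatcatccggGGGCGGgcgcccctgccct
It holds 4 GC boxes and 2 NF-Y boxes, at -94 and -48. The window of a second start site listed for DHCR7 held no match to any motif searched.

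SC5D (SC5DL in the files), the desaturase that makes the substrate of DHCR7 and is not among the 9, rose from 22.6 and 23.3 CPM to 35.5 and 32.2 CPM (log2 fold change 0.56, SE 0.096, adjusted p = 1.11e-04). Its silenced libraries lay above its control libraries. Of the further proteins of these steps, SC5D thus rose, ERG28 fell and LBR did not pass the threshold.

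**Figure D2:**
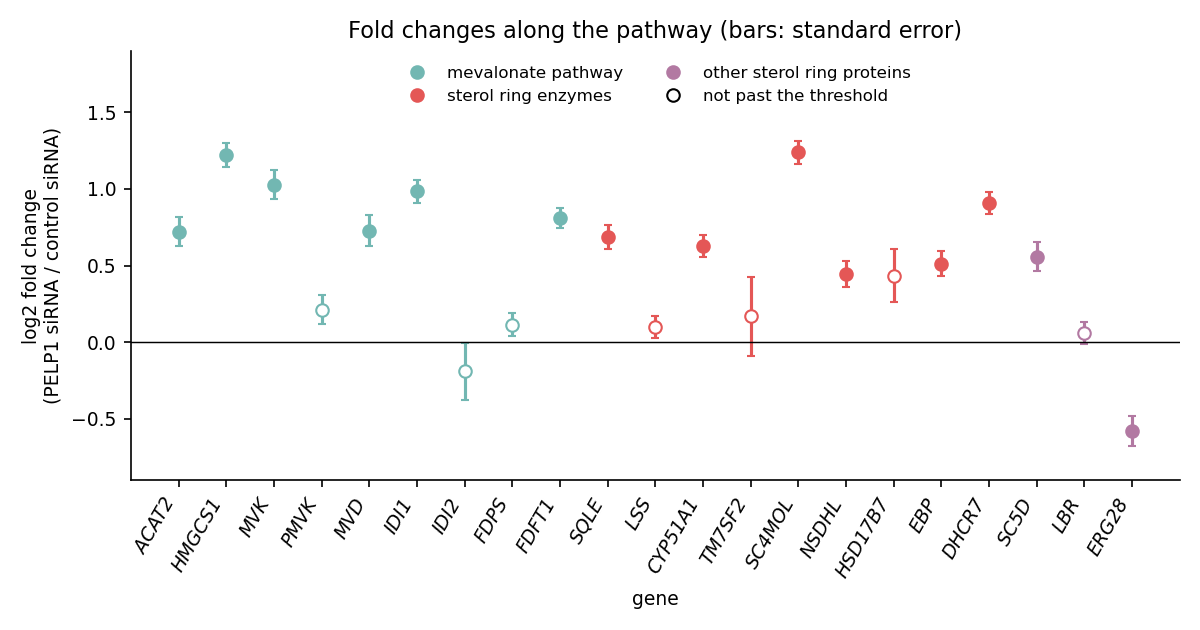
Log2 fold change (PELP1 siRNA over control siRNA, bars are standard errors) of mevalonate pathway genes, the 9 sterol ring enzymes and other sterol ring proteins; open points are not past the threshold. The sterol ring enzymes run from 0.10 for LSS to 1.24 for SC4MOL, and ERG28 lies at -0.58.

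Abundance in control cells was no criterion in choosing the genes, although control counts are one side of the contrast that chose them. Per kilobase of the canonical transcript, EBP was highest at 53.6 ± 2.71 CPM per kb (mean ± SD, n = 2). SC4MOL (30.4), LSS (28.9), DHCR7 (27.0), NSDHL (25.0), SQLE (23.5) and CYP51A1 (21.5 CPM per kb) formed a narrow middle group. HSD17B7 (2.92 ± 0.122) and TM7SF2 (1.36 ± 0.482 CPM per kb) were far lower, with EBP 39.4 times as abundant as TM7SF2. In this order SC4MOL and LSS overlapped in their control libraries, as did NSDHL and SQLE, and the other neighbours did not. With the length of all annotated exons in place of the canonical transcript, EBP stayed first (34.1) and HSD17B7 (0.933) and TM7SF2 (0.629 CPM per kb) last. Within the middle group that choice of length moved DHCR7 to the lowest place (10.3 CPM per kb). With PELP1 siRNA, SC4MOL reached 71.8 ± 3.58 CPM per kb and its libraries overlapped those of EBP (76.5 ± 7.34), and the mean of LSS (31.0 ± 2.29) was the lowest of the middle group, with libraries that overlapped those of CYP51A1 and NSDHL.

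**Figure D3:**
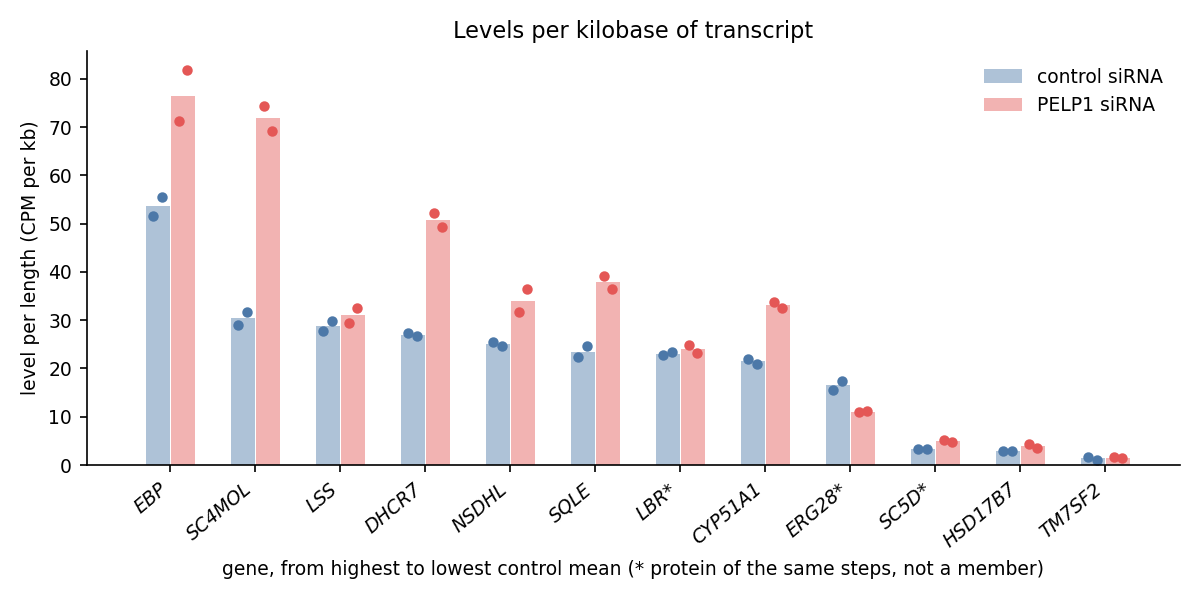
CPM per kilobase of canonical transcript in control and PELP1 siRNA cells for the 9 sterol ring enzymes and other proteins of the same steps (starred); bars are means of 2 libraries and points the libraries. In control cells EBP stands highest at 53.6 and TM7SF2 lowest at 1.36.

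The make-up of the group shifted with these unequal changes. Of the summed CPM of the 9 genes, LSS held 26.2 and 27.1% in the control libraries and 17.6 and 19.4% in the PELP1 siRNA libraries. SC4MOL held 12.4 and 13.1%, and then 20.3 and 18.8%. The shares of CYP51A1 stayed between 12.2 and 13.3% in all 4 libraries and those of SQLE between 12.7 and 14.2%. LSS was thus the largest part of the group by CPM in the control libraries, and SC4MOL and LSS were of similar size after silencing.

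Within a group the genes did not vary together in one direction. In the second PELP1 siRNA library EBP and NSDHL were 1.15 times and LSS 1.11 times as high as in the first. SC4MOL (0.932), SQLE (0.930), DHCR7 (0.945) and CYP51A1 (0.959) were slightly lower there, as were TM7SF2 (0.872) and HSD17B7 (0.816). Between the control libraries the ratio lay from 0.952 to 1.10 for 8 genes and at 0.599 for TM7SF2. For LSS the ratio between the silenced libraries exceeded its fold change of 1.07.

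Promoter windows of 250 bases before to 50 bases after the start site were found in RefSeq for 8 of the 9 genes, SQLE being the one without. The NF-Y box stood upstream of or at the start of 7 of these 8 genes (all but CYP51A1), against 34.6% of all 35116 promoter windows. At least 2 NF-Y boxes in a window were found for 5 of the 8 genes (SC4MOL, NSDHL, EBP, DHCR7 and HSD17B7), against 10.8% of all windows, a count that was taken after the matches were seen. The GC box was found for 7 of 8 genes (all but NSDHL), against 45.0% of all windows. The SREBP E-box CACGTG was found for 1 of 8 genes, LSS, at position 41, against 7.26%. The SREBP site TCACNCCAC and the cyclic AMP response element TGACGTCA were found for 0 of 8 genes, against 1.13% and 1.85%, which says only that these exact letters were absent from the windows. Both strands were searched, no matches overlapped in these genes apart from the NF-Y pair of NSDHL, and a match is a description of sequence. A gene with several windows counts once if any of them matches, and the shares are over single windows. Of the genes past the threshold, NSDHL held 5 NF-Y boxes, SC4MOL 4, EBP 3 and DHCR7 2, and CYP51A1 held no NF-Y box. Of those not past it, HSD17B7 held 2, and LSS and TM7SF2 held 1 each. Whether these counts bear on the response was not tested. Of the 7 mevalonate genes with a window in RefSeq, 5 had an NF-Y box and 6 a GC box in at least 1 of their windows.

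**Figure D4:**
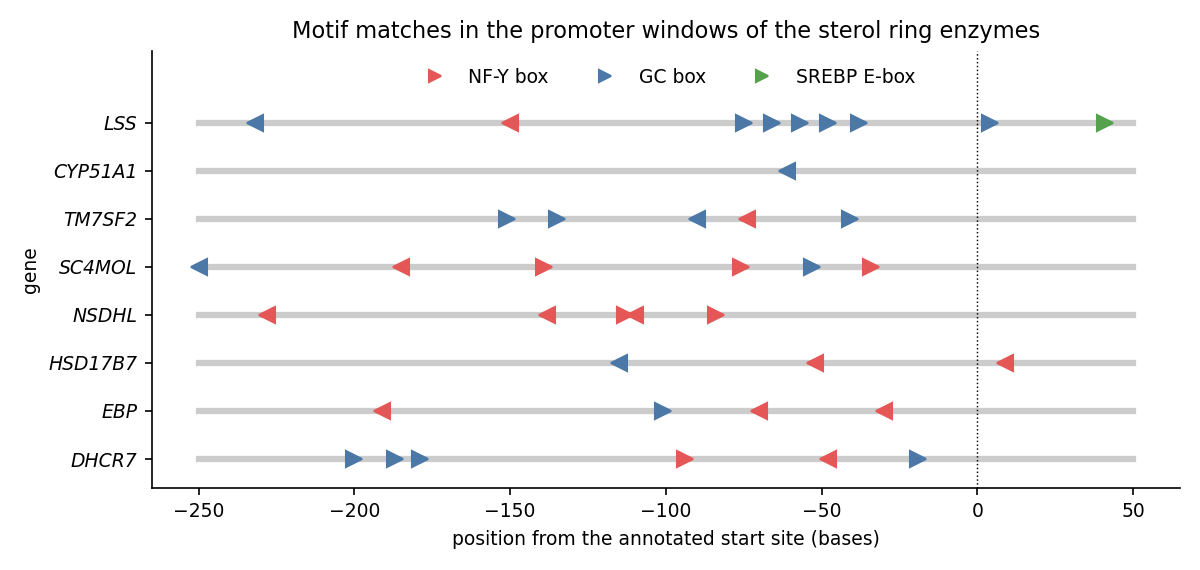
Positions of motif matches from the annotated start site (in bases) in the promoter windows of 8 sterol ring enzymes; arrowheads give the strand and colours the motif. NF-Y boxes lie in 7 of the 8 windows, most of them upstream of the start site, and LSS carries 7 GC boxes over the whole window.

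The genes around the sterol ring enzymes were counted in lists that were likewise set with earlier results known, and each list stands beside the same 12.9% higher and 15.0% lower over all genes. Of 10 genes of the mevalonate pathway, 7 rose, 0 fell and 3 did not pass, with a median log2 fold change of 0.72 (0.51 in the sterol ring enzymes; the difference was not tested). HMGCS1, an early synthase of the pathway, rose from 48.1 and 44.8 CPM to 111 and 105 CPM (log2 fold change 1.22, adjusted p = 4.37e-11). IDI1, the isopentenyl isomerase, rose from 54.2 and 58.2 CPM to 112 and 110.2 CPM (0.99, adjusted p = 1.03e-09). The 3 that did not pass, named after their values were seen, were PMVK (0.21), FDPS (0.11) and IDI2 (-0.19). Of 8 genes of fatty acid synthesis, 5 rose and 0 fell, with a median of 0.52, led by the desaturases SCD (1.76, adjusted p = 6.35e-15) and FADS2 (1.55, adjusted p = 1.72e-11).

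The branch of the pathway that leads away from sterols, to geranylgeranyl groups, dolichol and ubiquinone, had 2 genes higher, 1 lower and 4 not past the threshold of 7, with a median log2 fold change of 0.017. GGPS1, the geranylgeranyl diphosphate synthase, rose by 0.39 on the log2 scale (adjusted p = 0.00255, and 0.165 without control library 1). NUS1, a subunit of the dolichol-making enzyme, rose by 0.23 (adjusted p = 0.0396), and its adjusted p was 0.324 and 0.392 without control library 1 or 2, 0.0883 with DESeq2 and 0.0645 with the replicate number as a block.

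Of 9 electron donors and partners of the sterol enzymes, 1 was higher, 1 lower and 7 not past the threshold, with a median of -0.048. CYB5B, a cytochrome b5 of the outer mitochondrial membrane, rose by 0.27 on the log2 scale (adjusted p = 0.00234). SEC14L2, a lipid-binding protein known to stimulate squalene epoxidation, fell by 0.37 (adjusted p = 0.00390). Neither passed without control library 1 (0.162 and 0.0515) or control library 2 (0.111 and 0.165).

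Among 7 genes of sterol sensing, 2 rose, 1 fell and 4 did not pass, with a median log2 fold change of 0.10. SREBF1, which encodes SREBP1, rose from 84.0 and 82.4 CPM to 104 and 117 CPM (0.41, adjusted p = 2.59e-04). SCAP, the escort of SREBP proteins to the Golgi, rose by 0.27 on the log2 scale (adjusted p = 0.00554), and MBTPS2, a protease that releases them, fell by 0.30 (adjusted p = 0.00398). Neither SCAP (0.199 and 0.145) nor MBTPS2 (0.123 and 0.121) passed without control library 1 or 2. SREBF2, named after its values were seen, was at 107.5 and 109 CPM with control siRNA and 113 and 111 CPM with PELP1 siRNA and did not pass (0.051, SE 0.069, adjusted p = 0.623).

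Uptake and export genes moved in both directions. Of 7 tested genes of sterol uptake and transport, 3 rose, 2 fell and 2 did not pass, with a median of -0.15. STARD4, a carrier of sterol between membranes, rose from 34.1 and 35.0 CPM to 71.5 and 53.7 CPM (0.86, adjusted p = 1.45e-06), and NPC2, a lysosomal sterol-binding protein, by 0.40 (adjusted p = 1.62e-04). NPC1, the lysosomal sterol exporter, fell by 0.32 on the log2 scale (adjusted p = 5.25e-04, and 0.0635 without control library 1). Of 6 tested genes of export, esterification and LXR function, 1 rose, 1 fell and 4 did not pass, with a median of -0.085. SOAT1, which esterifies cholesterol for storage, fell by 0.46 on the log2 scale (adjusted p = 4.77e-05), and MYLIP, a ubiquitin ligase induced by LXR, rose by 0.56 from a mean of 2.85 to 4.21 CPM (adjusted p = 0.0322). MYLIP did not pass without control library 1 (0.154), control library 2 (0.243) or PELP1 siRNA library 1 (0.0519), or with DESeq2 (0.210).

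**Figure D5:**
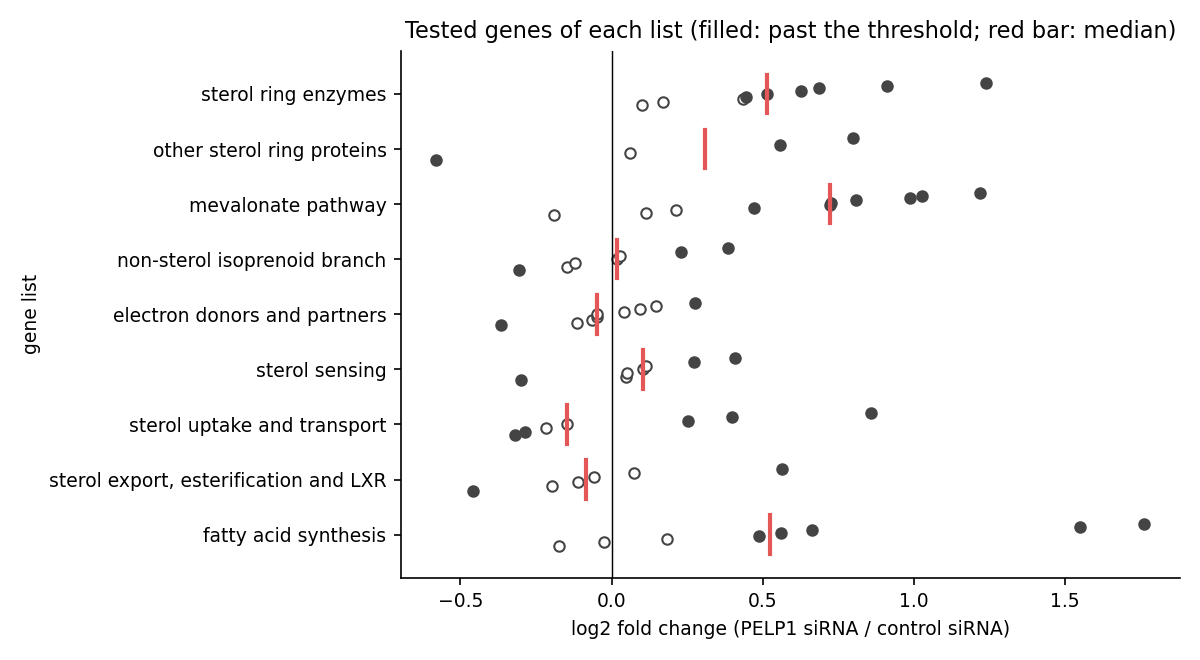
Log2 fold change of each tested gene in 9 lists of sterol and lipid genes; filled points are past the threshold and red bars are list medians. The medians lie at 0.51 for the sterol ring enzymes, 0.72 for the mevalonate pathway and 0.52 for fatty acid synthesis, and between -0.15 and 0.31 for the other lists.

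Across the 4 libraries, the 5 genes whose profile lay nearest to the mean profile of the 9 members included ARHGAP19, TMEM234, CBY1 and SLC25A13, out of 10586 other tested genes whose mean reached 5 CPM. Likeness was the Euclidean distance over the 4 libraries of log2(CPM + 0.5) less its mean, and these 5 lay at 0.020 to 0.036. ARHGAP19 stood at 22.7 and 22.0 CPM with control siRNA and at 33.2 and 32.5 CPM with PELP1 siRNA. The members themselves lay at 0.076 (CYP51A1) to 0.68 (SC4MOL) from their own mean. The 5 genes had log2 fold changes of 0.53 to 0.57, which follows from their choice by likeness over these same libraries. None of them belongs to the lists above.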

How the data were processed

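RNA-seq libraries of total RNA (TruSeq, single-end) were made from U87 cells with control siRNA (2 libraries) or PELP1 siRNA (2 libraries). Per the submitters' processing notes, reads were processed with CASAVA 1.8.2, TopHat2 2.0.8b and HTSeq on hg19 (GRCh37), and the design text names a DESeq step after HTSeq. The version of HTSeq, its strand setting and its annotation are not stated in the sources used here. The deposited values are raw read counts per gene symbol, which the authors did not normalize. The 5 summary lines of the counter in each file (36.0 to 37.6% of its total) were left out. Multiply aligned reads, 26.3 to 27.5% of the total, are not in the gene counts, which lowers genes with close copies.

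Counts were filtered with filterByExpr (minimum count 10, minimum total 15), which kept 13234 of 23228 symbols. After TMM scaling, edgeR 4.0.16 under R 4.3.3 fitted a robust quasi-likelihood model with group as its term. A gene passed the threshold, or was called, where its p adjusted by Benjamini-Hochberg across the whole table was below 0.05, and every adjusted p is from this test unless DESeq2 is named. SE is the log2 fold change divided by the root of its F statistic. Precision for abundant genes is set by the spread between libraries (biological coefficient of variation 5.23%). Replicates differed beyond sampling noise, so none were merged. Chi-square per gene was 2.09 for the control libraries and 7.13 for the PELP1 siRNA libraries. Where a PELP1 siRNA library is left out, the control libraries alone set the spread.

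Alternatives were scaling by total counts, by upper quartile or by size factors of DESeq2, no or a stricter filter (5 CPM in 2 libraries), DESeq2 1.42.0, limma 3.58.1 (voom), a fit that is not robust, the replicate number as a block, and leaving out each library. The code was tested on simulated data. Positions and lengths came from GENCODE v44lift37 (GRCh37), and promoters from RefSeq (GRCh38.p14). All genes of the lists were found in the files, some by older symbols. The members and lists were chosen with earlier results of these data known. Named were all members and other ring proteins, PELP1, the 2 called genes with the smallest adjusted p per direction in each other list, and the 5 nearest profiles; some items that the rule names are not reported here.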

Additional observations from a re-analysis of the deposited data

How the results depend on the processing

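The sterol ring enzymes gave 6 genes higher in 11 of the 14 settings, the reported one included, and 7 in 3; SQLE, CYP51A1, SC4MOL, NSDHL, EBP and DHCR7 were called in all 14, and 0 were lower in any. TM7SF2, at 36 to 52 counts, had a log2 fold change of -0.17 without control library 2 and 0.56 without control library 1, and the stricter filter removed it. The cause of the shifts was not tested. All settings refit the same libraries, and the members were chosen by the contrast being called, so the members' calls are a description only. Total-count scaling gave 0 lower genes in the non-sterol branch (1 as reported) and put the median log2 fold change of all genes at 0.0489 (0.00088 as reported). The stricter filter gave 0 higher export genes (1 as reported), because it removed MYLIP. DESeq2 called 1133 genes higher and 1427 lower over all genes, 1 higher and 0 lower in the non-sterol branch, and 0 higher among export genes. With the replicate number as a block, 1613 genes were higher and 1968 lower, 6 sterol ring enzymes were higher, and 1 gene of the non-sterol branch was higher (2 as reported). The labels tie the numbers to no shared source, and the deviations of same-numbered libraries correlated at -0.0411 over 13234 genes, so the numbers are not taken as a pairing.

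Leaving out each library in turn, which leaves a group with 1 library assumed to vary like the other group, gave 523 to 2724 genes higher and 943 to 2804 lower. The range was 6 to 7 higher among the sterol ring enzymes and 7 to 9 higher in the mevalonate pathway. It was 0 to 2 higher and 0 to 1 lower in the non-sterol branch, 0 to 2 higher and 0 to 3 lower among electron donors, and 1 to 3 higher and 0 to 1 lower in sterol sensing. It was 2 to 3 higher and 0 to 4 lower in uptake, 0 to 1 higher and 1 to 2 lower in export, and 5 to 6 higher and 0 to 1 lower in fatty acid synthesis. The log2 fold change of PELP1 ran from -2.32 to -2.10. With 36 to 131 counts per library, TM7SF2 and HSD17B7 had SEs of 0.26 and 0.17, against 0.071 to 0.087 for the other members.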
